A study of Mus musculus with 6 samples.

Results

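The Notch receptors Notch1, Notch2 and Notch4, the ligands Dll1, Dll4, Jag1 and Jag2 and the transcriptional targets Hes1, Hey1 and Heyl were read from bone endothelial cells (BECs) of female and male mice. These 10 genes were taken by name from the 37991 genes of a table of read counts, and each Ensembl identifier was matched to its mouse symbol. BECs had been purified by their expression of endomucin, a surface protein of bone capillaries and veins, from the freshly isolated tibia of c57/Bl6 mice aged 12 weeks. There were 3 libraries from females and 3 from males, with no treatment, transgene or deletion named in either group, and the comparison asked which transcripts differ between the sexes. The labels number the libraries within each sex and do not say whether each came from its own mouse, so the p-values below measure only the spread between these libraries, which may be technical.

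Notch signalling passes between touching cells. A Delta-like or Jagged ligand on one cell binds a Notch receptor on its neighbour, the receptor is cut by Adam10 and then by γ-secretase, and its freed intracellular part joins the DNA-binding protein Rbpj to switch on genes of the Hes and Hey families. In blood vessels Dll4 marks tip cells and arterial endothelium, and Notch4 is a receptor found mainly on endothelium, whereas Notch1 and Notch2 are also used by blood cells. In bone, endothelial Notch is known to promote the growth of the capillaries that accompany bone formation.

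Of the 10 members, RefSeq promoter windows were found for 7, in 8 windows of 300 bases that run from 250 bases before a transcription start to 50 bases after it on GRCm38.p6, and the targets Hes1, Hey1 and Heyl were not among the 7. The windows of Dll4 and Notch4 are shown because these members had the largest fitted differences between the sexes among them, and they are printed 5′ to 3′ on the strand of the gene. Capitals mark GGAA and its reverse complement TTCC, the core letters recognised by ETS factors, a family of transcription factors used by endothelial cells. These letters were searched after the members' values had been seen.
Dll4 promoter, chr2:119325534-119325833, plus strand: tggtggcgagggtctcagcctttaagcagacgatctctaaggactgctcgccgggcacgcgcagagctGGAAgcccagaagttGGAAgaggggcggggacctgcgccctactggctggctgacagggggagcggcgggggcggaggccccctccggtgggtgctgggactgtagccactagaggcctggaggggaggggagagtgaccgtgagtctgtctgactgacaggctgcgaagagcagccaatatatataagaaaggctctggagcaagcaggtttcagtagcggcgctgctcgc
Notch4 promoter, chr17:34564045-34564344, plus strand: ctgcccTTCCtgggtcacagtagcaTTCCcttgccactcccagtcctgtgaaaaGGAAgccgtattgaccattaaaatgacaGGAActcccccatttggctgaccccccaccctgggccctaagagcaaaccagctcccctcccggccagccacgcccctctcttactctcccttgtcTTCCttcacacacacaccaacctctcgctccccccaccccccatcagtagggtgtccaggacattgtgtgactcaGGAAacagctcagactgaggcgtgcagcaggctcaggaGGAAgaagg
The Dll4 window held 2 such matches, both as GGAA, and the Notch4 window held 7, of which 4 read GGAA and 3 read TTCC. Over the 32544 windows of the same length in the reference, 96.0% held at least 1 match, so a match to so short a run is common. The median was 3, above the Dll4 window, and the ninetieth percentile was 6, below the Notch4 window. The longer ETS letters CCGGAAGT were in neither printed window and in 3.92% of all windows. The letters TGGGAA, which Rbpj binds, searched with their reverse complement TTCCCA, were in none of these 8 windows of receptors and ligands and in 25.4% of all windows, and the longer GTGGGAA was in 6.39%. This says only that those letters are not in these windows.

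The 6 libraries held between 47678806 and 58325745 counts, and a member had between 37 and 12538 counts in a library. Depending on the library, 3 counts amount to 0.0514 to 0.0629 CPM, the counts scaled to a common library size by total counts alone. This limit covers counting error only. All levels below are CPM after TMM normalisation, which corrects each library's total by a factor estimated from the bulk of the genes. After it, 3 counts in female 1 were 0.0477 CPM, so the limit above is approximate for these levels. The labelled cell type was checked against 24 endothelial markers. All 24 were measured, yet their summed level was 595, 418 and 626 CPM in females 1, 2 and 3 and 326, 248 and 382 CPM in males 1, 2 and 3. By this sum every female library lay above every male library, but taken singly only 6 of the 24 markers had no overlap between the sexes. The 12 neutrophil markers summed to 18661 to 22805 CPM in the female libraries and to 31705 to 43498 CPM in the male libraries, so these markers together were far more abundant than the endothelial ones in each library. In bulk RNA, fewer cells of a type and less RNA per cell cannot be told apart, and this holds for each member.

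Dll4, Notch4 and Heyl had the lowest levels in males relative to females, by 2.53-fold, 1.73-fold and 1.55-fold in the ratio of group means. The male mean was above the female mean in Notch1, by 1.28-fold, and in Hes1, by 1.07-fold, and Notch2, the most abundant receptor, had a ratio of 0.963. None of the 10 members passed the test. In edgeR's quasi-likelihood test, with p-values adjusted by Benjamini-Hochberg over all genes, 0 of 10 were under an adjusted p of 0.05, where 0.0411% of the 19480 genes tested were. At an unadjusted p under 0.05 there were 3 of 10, all lower in males, and the background was 4.76% of genes lower in males and 9.79% in either direction. DESeq2's Wald test called 1 of 10, Dll4, where it called 1.99% of genes. The plot of CPM by library shows how far the 3 female and 3 male values of each member lay apart.

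**Figure D1:**
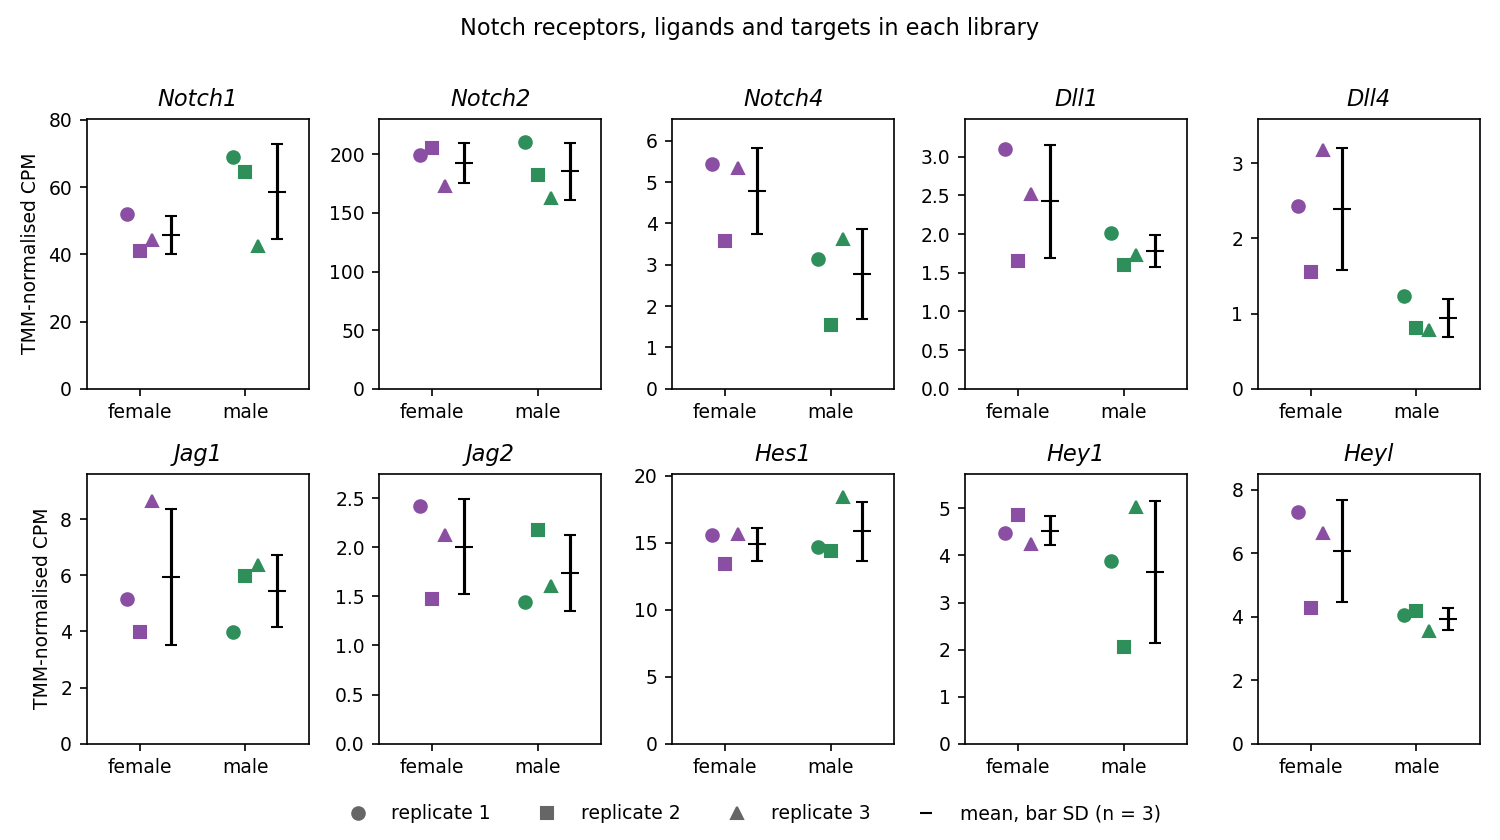
TMM-normalised CPM of each member (vertical axis from 0) in the 3 female (purple) and 3 male (green) libraries, with symbols for replicates 1, 2 and 3 and the mean and SD in black. The sexes do not overlap for Dll4 and Heyl, in both of which the males lie lower, and overlap for the other 8 members.

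Among the receptors, Notch4 lies on chromosome 17 of GRCm39 from 34783220 to 34807477. It had 5.44, 3.58 and 5.35 CPM in females 1, 2 and 3 and 3.13, 1.54 and 3.63 CPM in males 1, 2 and 3. Female 2 lay just under male 3, so the sexes overlapped by this one library. The means were 4.79 ± 1.05 in females and 2.77 ± 1.09 in males (SD, n = 3), and the log2 fold change of males over females was -0.79 ± 0.339 (SE) with a 95% confidence interval from -1.54 to -0.04. Its unadjusted p in edgeR was 0.0415 and its adjusted p 0.480, so the difference did not pass. A processed pseudogene, Gm20462, overlaps its exons on the other strand and had 0 counts in the table.

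Notch1 is on chromosome 2 from 26347915 to 26406675. It had 51.9, 40.9 and 44.1 CPM in females and 68.8, 64.5 and 42.5 CPM in males. Males 1 and 2 lay above every female, and male 3 lay among the females. The means were 45.6 ± 5.69 and 58.6 ± 14.1 CPM (SD, n = 3), and the log2 fold change of 0.36 ± 0.179 (SE) had an interval from -0.04 to 0.76 and an adjusted p of 0.552 in edgeR. The non-coding genes Gm13568 and 0610009E02Rik overlap its exons on the other strand.

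Notch2, on chromosome 3 from 97920800 to 98057677, had 199, 205 and 173 CPM in females and 211, 183 and 163 CPM in males. All females lay within the range of the males. Its log2 fold change was -0.05, and the interval from -0.35 to 0.25 bounds the sex difference that these libraries allow. Notch3, the receptor of mural cells and no member of the list, had 18.6, 4.73 and 15.0 CPM in females and 13.7, 6.54 and 12.5 CPM in males. Both libraries numbered 2 were low for it, within-sex differences wider than the difference between the sexes, and its adjusted p in edgeR was 0.910.

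The make-up of the receptor transcripts was then expressed as the share of each receptor in the summed CPM per kilobase of Notch1 to Notch4. Shares within a family add up to a whole, so a share can differ through the levels of the other genes. Notch2 held between 73.6% and 82.8% of this sum in every library. The share of Notch1 was 15.2%, 13.0% and 15.0% in females and 19.0%, 20.9% and 15.5% in males, and the lowest male lay above the highest female (two-sided exact permutation p = 0.1, below which 3 against 3 libraries cannot go). Adjusted over the 11 shares computed within receptors, ligands and targets, this p was 0.367. The share of Notch4 was 2.43% ± 0.552 in females and 1.44% ± 0.663 in males (SD, n = 3), with overlap.

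Of the ligands, Dll4 showed the largest difference of all members. It is on chromosome 2 from 119156170 to 119166443, and its promoter is the first of the windows printed above. Females 1, 2 and 3 had 2.43, 1.55 and 3.17 CPM, and males 1, 2 and 3 had 1.23, 0.81 and 0.78 CPM. All females lay above all males, with the smallest gap between female 2 and male 1. These levels rest on 153, 82 and 149 counts in females and 65, 40 and 37 counts in males. For the lowest of them, in male 3, the exact Poisson 95% interval was 26.1 to 51.0 counts, which covers counting error only. The means were 2.39 ± 0.812 and 0.942 ± 0.253 CPM (SD, n = 3).

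The log2 fold change of Dll4, males over females, was -1.34 ± 0.371 (SE), with a 95% interval from -2.16 to -0.51. The unadjusted p was 0.00467 and the adjusted p 0.259 in edgeR's quasi-likelihood test, so Dll4 did not pass there. In DESeq2's Wald test, which the study used, it had a log2 fold change of -1.33 ± 0.404 (SE) and an adjusted p of 0.0494, just under the threshold, and over all the alternatives in edgeR and DESeq2 with all libraries or with 1 left out in edgeR, the adjusted p ran from 0.0494 to 0.933. Leaving out each library in turn in DESeq2, a check added after this call was seen, kept the call without female 2 (adjusted p = 0.0296) or male 1 (adjusted p = 0.0418). The call was lost without female 1 (0.187), female 3 (0.484), male 2 (0.472) or male 3 (0.119), with adjusted p given in parentheses. Exons of Dll4 overlap those of Gm14207, a long non-coding RNA on the other strand, which had 0.173 ± 0.109 CPM in females and 0.293 ± 0.0608 CPM in males (SD, n = 3). Whether reads were counted by strand is not given in the sources used here, and if they were not, reads of the pair could not be told apart.

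The other ligands overlapped between the sexes. Dll1, on chromosome 17 from 15587276 to 15597134, had 3.10, 1.65 and 2.51 CPM in females and 2.01, 1.60 and 1.73 CPM in males. Female 2 lay among the males and the other females above them, and the log2 fold change was -0.44 with an interval from -1.15 to 0.26. Its exons overlap those of Fam120b on the other strand, which had 18.6 ± 1.33 CPM in females and 20.0 ± 2.88 CPM in males (SD, n = 3), and without counting by strand reads of that gene could add to those of Dll1. Jag1, on chromosome 2 from 136923373 to 136958693, had 5.15, 3.99 and 8.65 CPM in females and 3.97, 5.97 and 6.35 CPM in males. Its highest value was in female 3, and its interval ran from -0.82 to 0.56 on the log2 scale. Jag2, on chromosome 12 from 112871421 to 112893437, had 2.42, 1.48 and 2.13 CPM in females and 1.44, 2.17 and 1.60 CPM in males, with an interval from -0.93 to 0.51. The adjusted p of these ligands in edgeR lay between 0.698 and 0.929.

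Within the sum of the 4 ligands per kilobase, the share of Dll4 was 25.2%, 24.5% and 26.3% in females and 19.7%, 11.2% and 10.8% in males. The female shares lay close together, and every male share lay below them. The exact permutation test gave p = 0.1, the smallest possible, and 0.367 after adjustment over the 11 shares. Per kilobase of exon, Jag1 held the largest ligand share in each library. It was 41.5% ± 6.03 in females and 51.5% ± 8.44 in males (SD, n = 3), and these shares overlapped. With coding length the 6 libraries ran from 1.09 to 2.37 CPM per kilobase for Jag1 and from 0.740 to 1.43 for Dll1, so the ranges of these ligands overlapped.

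Among the targets, Heyl, a transcriptional repressor of the Hey family that is also found in mural cells, lies on chromosome 4 from 123127349 to 123143682. It had 7.32, 4.28 and 6.65 CPM in females and 4.06, 4.18 and 3.54 CPM in males. Females 1 and 3 were well above the males, and female 2 exceeded the highest male by a small margin. The means were 6.08 ± 1.60 and 3.93 ± 0.340 CPM (SD, n = 3). The log2 fold change was -0.63 ± 0.254 (SE), with an interval from -1.19 to -0.07, an unadjusted p of 0.0319 and an adjusted p of 0.450 in edgeR.

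Hes1, the target shared by many tissues, lies on chromosome 16 from 29882134 to 29886643. It had 15.5, 13.4 and 15.6 CPM in females and 14.7, 14.4 and 18.4 CPM in males. Its values were among the most even of the members, with male 3 the highest, and its log2 fold change of 0.09 had an interval from -0.26 to 0.44. Hey1, a repressor that marks arterial endothelium, lies on chromosome 3 from 8726956 to 8732385 and had 4.49, 4.86 and 4.24 CPM in females and 3.87, 2.05 and 5.04 CPM in males. Females were close together, and male 2 was low while male 3 was the highest of all libraries. The log2 fold change was -0.31 with an interval from -1.02 to 0.40.

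Of the sum of the 3 targets per kilobase, Hes1 held 66.5%, 68.6% and 68.4% in females and 73.4%, 77.8% and 76.0% in males. Each male share lay above each female share (exact permutation p = 0.1, and 0.367 after adjustment over the 11 shares). The CPM of Hes1 itself overlapped between the sexes. The remainder was Hey1, at 14.7% ± 2.44 and 12.0% ± 3.69, and Heyl, at 17.5% ± 3.15 and 12.2% ± 2.62 (SD, n = 3), both with overlap.

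Counted over the list, 8 members had a lower and 2 a higher fitted level in males, and the median log2 fold change was -0.26. Over all genes tested 9781 of 19480 were lower and the median was -0.00125. The sexes did not overlap in 2 of 10 members, Dll4 and Heyl, both lower in males, where 14.5% of genes had no overlap in either direction and 7.29% had none and were lower. A list of 10 genes is too short to tell a count of 2 from this background, and no test was made over the list. The count of members without overlap was 4 without female 2, where Notch4 and Dll1 were added and 23.1% of all genes had no overlap. It was 5 without male 3, where Notch4 and Hey1 were added below and Notch1 above the females and 32.2% of all genes had no overlap. With libraries scaled by total count alone it was 1, beside 14.1% of all genes. Female 2 had the lowest female value in 8 of 10 members and in 21 of 24 endothelial markers. Male 2 had the lowest male value in 4 of 10 members and 19 of 24 markers. The highest female value was in female 3 for 3 of 10 members and 19 of 24 markers. The highest male value was in male 3 for 4 of 10 members and 21 of 24 markers.

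The rest of the pathway was read from a list of 45 further genes, all of them in the table, of which 39 passed the filter on low counts. Dll3, Dlk1, Dner, Hes2, Hes3 and Hey2 did not pass it. Hey2, an arterial target, had 0 to 6 counts in the female and 0 to 15 in the male libraries. Of the 39 genes, 17 were higher and 22 lower in males, the median log2 fold change was -0.04, and 0 passed an adjusted p of 0.05 in edgeR or in DESeq2, while 1 was under an unadjusted p of 0.05 in edgeR. Rbpj, through which every receptor acts, had 43.5, 43.6 and 45.3 CPM in females and 47.0, 45.5 and 44.1 CPM in males. It was the most even gene named here, with a log2 fold change of 0.04 ± 0.103 (SE). Fitted log2 fold changes were -0.05 for Adam10, which cuts the receptors, -0.15 for Lfng and -0.25 for Mfng, which add sugars to them, and -0.15 for Nrarp, a target that limits the signal. The adjusted p of these genes in edgeR lay between 0.596 and 0.939.

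Egfl7, a secreted protein of endothelial cells that binds Notch, had 22.4, 11.2 and 24.8 CPM in females and 10.3, 6.76 and 19.4 CPM in males. The sexes overlapped, with both libraries numbered 2 the lowest of their sex, and its log2 fold change was -0.68 with an adjusted p of 0.629 in edgeR. The gene under an unadjusted p of 0.05 was Numb, an inhibitor that sends Notch receptors for degradation, named here after its value had been seen. It had 34.1, 33.2 and 31.6 CPM in females and 42.9, 50.9 and 42.0 CPM in males, every male above every female. Its log2 fold change was 0.46 ± 0.119 (SE), with an unadjusted p of 0.00309 and an adjusted p of 0.233 in edgeR, and 0.0729 in DESeq2. Besides Numb, 2 of the 39 genes had no overlap, the co-activator Maml2 and the γ-secretase subunit Aph1a, both lower in males, with log2 fold changes of -0.30 and -0.12. These 3 of 39 genes compare with the 14.5% of all genes that had no overlap in either direction. The plot of fold changes sets these genes beside the members.

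**Figure D2:**
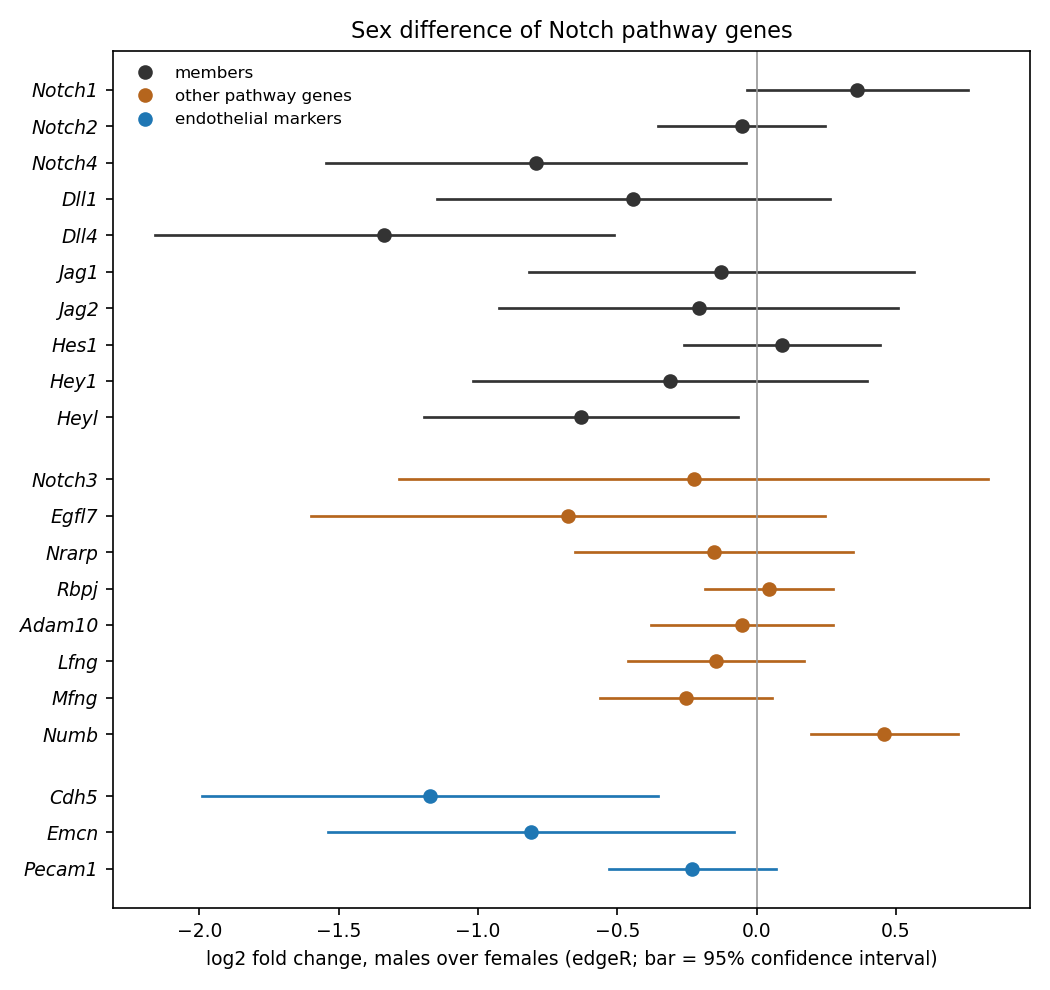
Log2 fold change of males over females in edgeR (points, horizontal axis) with 95% confidence intervals (bars) for the 10 members, 8 other pathway genes and 3 endothelial markers. Dll4 at -1.34 lies farthest from 0 and near Cdh5 at -1.17, and the intervals of Notch4, Dll4, Heyl, Numb, Cdh5 and Emcn leave out 0 before adjustment.

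Markers of cell types were read in the same fit. All 24 endothelial markers had a lower fitted level in males. Their log2 fold changes ran from -1.44 to -0.095 with a median of -1.07, and 18 of 24 were at an unadjusted p under 0.05 in edgeR. DESeq2 called 9 of them and edgeR 0. Cdh5, the adhesion protein of endothelial junctions, had 31.2, 15.8 and 32.6 CPM in females and 12.6, 6.50 and 16.1 CPM in males, a log2 fold change of -1.17. Emcn, which encodes the endomucin used to select the cells in both sexes and so is no independent marker of them, had -0.81. Pecam1, which platelets and leucocytes also carry, had -0.23. The fitted difference of Dll4, -1.34, stood beside that of Cdh5. Notch4 and Heyl had smaller differences than the marker median, and Notch1 and Hes1 had differences of the other sign.

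Other marker lists also differed between the sexes. The median log2 fold change was 0.76 for the 12 neutrophil markers and 0.38 for the 8 erythroid markers. It was -0.42 for the 8 macrophage markers, -0.68 for the 6 megakaryocyte markers, -0.38 for the 8 mural markers, among them Notch3, and -0.27 for the 8 stromal markers. It was -0.06 for the 7 B cell markers in the table and -0.07 for the 8 T cell markers. In CPM, the mural markers summed to 53.6 to 98.0 over the female libraries and 45.0 to 75.6 over the male ones, and the megakaryocyte markers to 48.7 to 190.2 and 37.0 to 97.0. The macrophage markers summed to 4528 to 4823 over the female libraries and 3026 to 4043 over the male ones, and the stromal markers to 1394 to 2853 and 1207 to 2299. The part of these cells in the level of any member was not tested.

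Each member was then expressed relative to the endothelial markers, as its log2 CPM minus the mean log2 CPM of the 24 markers in the same library. This marker mean was 3.62 ± 0.498 in females and 2.68 ± 0.468 in males (SD, n = 3), a difference of -0.94. The sexes overlapped in it, with female 2 at 3.06 and male 3 at 3.16. On this scale Dll4 was at -2.53, -2.39 and -2.30 in females and -2.31, -2.46 and -3.45 in males. Males 1 and 2 lay within the female values and male 3 lay below, and the difference was -0.33 (two-sided exact permutation p = 0.6). Notch4 was at -1.38, -1.20 and -1.55 in females and -0.995, -1.56 and -1.29 in males. The ranges overlapped, with male 1 above every female, and the difference was 0.10 (exact permutation p = 0.7). Heyl had a difference of 0.35 (exact p = 0.5).

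Over the list, 9 of 10 members had a positive difference, males minus females, on this scale, and the median was 0.65. Hes1 stood at 0.13, 0.69 and -0.01 in females and 1.22, 1.63 and 1.05 in males, Jag1 at -1.46, -1.05 and -0.86 in females and -0.66, 0.36 and -0.48 in males, and Jag2 at -2.54, -2.46 and -2.87 in females and -2.09, -1.08 and -2.44 in males. The sexes did not overlap in these 3 members, where 29.9% of all genes tested were higher in males without overlap on the same scale. Their differences were 1.03, 0.86 and 0.75, each at an exact permutation p of 0.1, the smallest possible, and 0.333 after adjustment over the 10 members. Notch1, with a difference of 1.28, and Notch2, with 0.89, overlapped through male 3 (exact p = 0.2 for each). Dll1 and Hey1, each with a difference of 0.55, also overlapped (exact p = 0.3 for each). A difference of 0.94 on this scale is that of a gene whose CPM did not differ, since the marker mean itself differed by that amount.

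**Figure D3:**
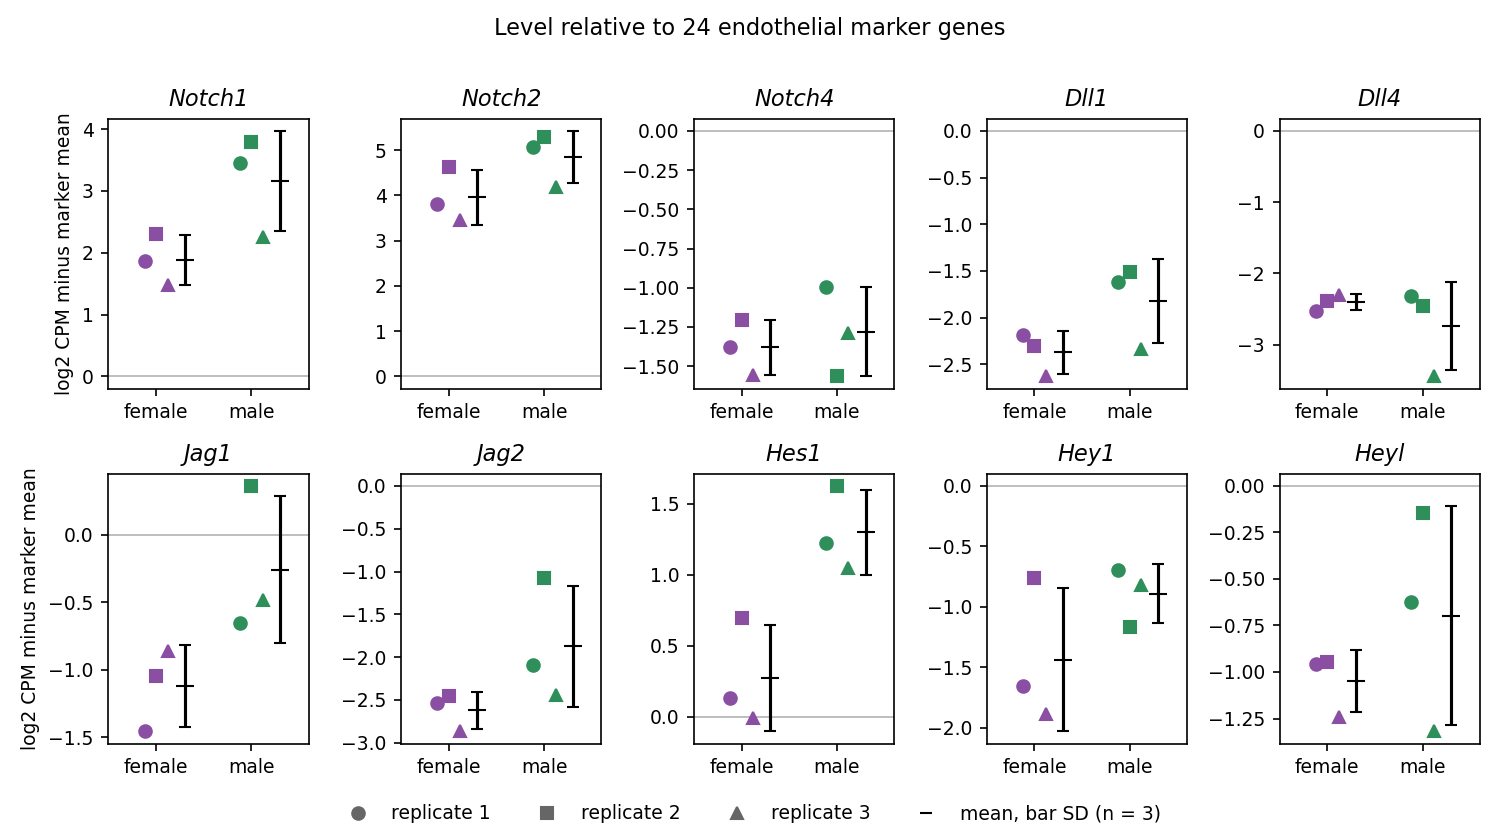
Log2 CPM of each member minus the mean log2 CPM of 24 endothelial markers in the same library (vertical axis, log2 units) in 3 female (purple) and 3 male (green) libraries, with mean and SD in black. Hes1, Jag1 and Jag2 are higher in all males, and Dll4 and Notch4 overlap.

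Levels of different genes were compared per kilobase of exon, with the mean over the 6 libraries. Notch2 was the highest at 16.8 ± 1.70 CPM per kilobase (SD, n = 6), followed by Hes1 at 4.55, Notch1 at 3.66, Jag1 at 0.953, Heyl at 0.945, Hey1 at 0.853, Notch4 at 0.427, Dll1 at 0.424, Dll4 at 0.422 and Jag2 at 0.264. The lowest Notch2 library lay above the highest Hes1 library, and the lowest Notch1 library above the highest Jag1 library. The ranges of all other neighbours in this order overlapped. Compared within each library per kilobase of exon, Jag1, Heyl and Hey1 each lay above Notch4, Dll1, Dll4 and Jag2 in 6 of 6 libraries. Any pair among Jag1, Heyl and Hey1 changed order between libraries, at 3 of 6 each way. Dll1 lay above Jag2 in 6 of 6 libraries, and Dll4 did so in 4 of 6. The order of the means was not the same in both sexes, though the libraries of these neighbours overlapped. Dll4 had 0.605 in females, above Notch4 at 0.541 and Dll1 at 0.488, and 0.239 in males, below Jag2 at 0.245, and Heyl had 1.15 beside 0.995 for Jag1 in females and 0.742 beside 0.911 in males. Cdh5 had 4.37 and Notch3 1.31 on the same scale. Notch4, Dll1, Dll4 and Jag2 had the lowest means, and Notch1 and Notch2 lay above every ligand in all libraries. With coding length in place of exon length Notch2 stayed first at 24.3 CPM per kilobase, with Hes1 closer behind it at 16.2. Notch4, at 0.625, then had a lower mean than Dll1, at 0.970, and Dll4, at 0.809, and Hey1 and Heyl, whose exons are largely untranslated, moved ahead of Jag1 at 4.45, 4.37 and 1.55.

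**Figure D4:**
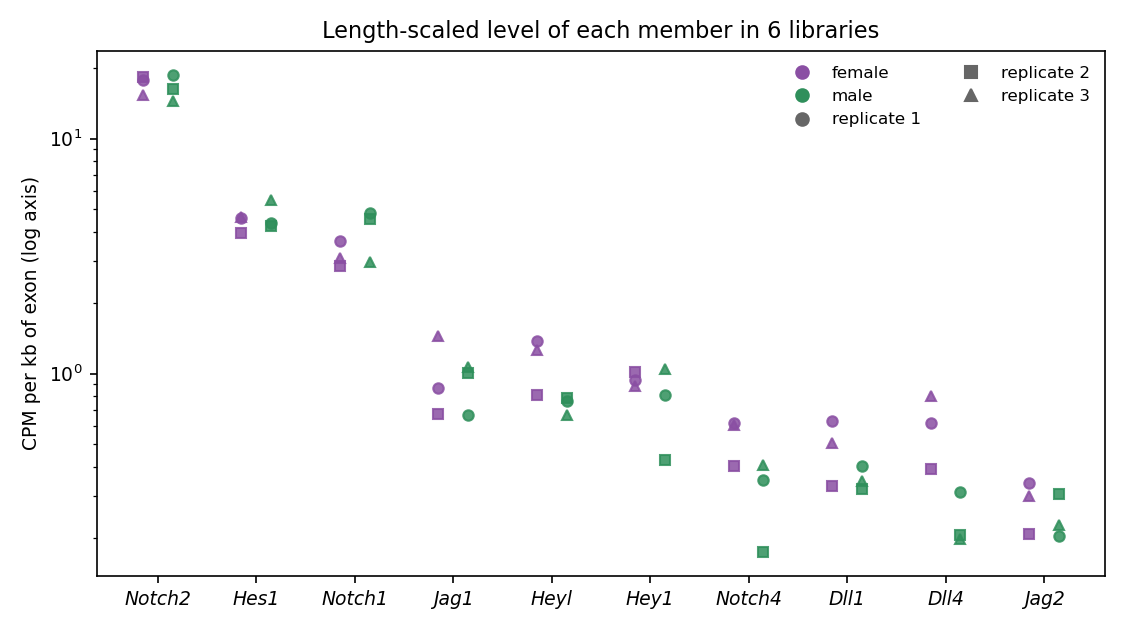
CPM per kilobase of exon (log axis) of each member in the 3 female (purple) and 3 male (green) libraries, ordered by the mean over 6 libraries, with symbols for replicates. Notch2 is the highest at 16.8, Hes1 and Notch1 follow at 4.55 and 3.66, and the 7 other members lie at or below a mean of 0.953.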

How the data were processed

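Bone endothelial cells of female and male mice aged 12 weeks were profiled by RNA-seq, with 3 libraries for each sex. The labels name the tibia and the strain as c57/Bl6, and the paper's methods name C57BL/6J wild types and, for isolated bone cells, femurs as well. The authors deposited raw counts of reads, as whole numbers for each gene in each library, with neither normalization nor pooling. The sources differ on how these counts were made. The paper names STAR, GRCm39 and featureCounts, whereas the submitters' processing notes name TopHat2 2.0.11, featureCounts and an older mouse build, and the paper and the labels also differ on read length, library kit and sequencer. Aligner, build and strand setting can move reads between overlapping genes, and this could not be settled from the counts. Symbols, exon lengths and gene positions therefore come from GENCODE M39 on GRCm39, matched by Ensembl identifier for 31073 of 37991 genes holding 96.2% of counts, and promoter windows from RefSeq on GRCm38.p6. Every column of the table belonged to a labelled sample.

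Total counts were between 47678806 and 58325745. No pair of libraries agreed within sampling noise (chi-square per degree of freedom at least 33.6 over 15 pairs). Males were compared with females in edgeR 4.0.16 under R 4.3.3, with TMM normalization and a robust quasi-likelihood fit to the 19480 genes left by the package's own filter on low counts, all of which entered the Benjamini-Hochberg adjustment. Genes were called at an adjusted p under 0.05. The standard error of a log2 fold change was obtained from the F statistic of its test. Log2 CPM used a prior count of 2. Exact permutation tests were made with scipy 1.17.1. DESeq2 1.42.0, other scalings (its size factors, total counts, the endothelial markers), other filters on low counts, fits without robust estimation, the replicate number as a block and each library left out in turn were the alternatives, and DESeq2 with each library left out was added after the call of Dll4 was seen. The edgeR fit, its fit with the block and DESeq2 were tested on simulated counts, where a larger share of the calls was false in DESeq2 than in either edgeR fit.

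The members, the list of 45 pathway genes and the marker lists (endothelial, neutrophil, erythroid, B cell, T cell, macrophage, megakaryocyte, mural and stromal) were chosen with earlier results of these data known. Genes named in the text are the 10 members, Notch3, Hey2, Rbpj, Lfng, Mfng, Egfl7, Nrarp and Adam10, any pathway gene called with or without the block, and the markers Cdh5, Emcn and Pecam1. Numb, Maml2, Aph1a and the genes that overlap members were added after their values were seen. A further gene of this rule is not reported here. Samples of other ages were not used here.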

Additional observations from a re-analysis of the deposited data

How the results depend on the processing

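No member was called at an adjusted p under 0.05 in edgeR under any scaling, filter, block or left-out library tried, and DESeq2 called 1. The median log2 fold change of the members was -0.26, between -0.37 and -0.21 with each library left out, and 0.71 with libraries scaled to the endothelial markers, a scaling that moved the median of all genes to 0.93. The number of members without overlap was 2, 1 with total counts alone and between 2 and 5 with each library left out, where the share of all genes without overlap rose from 14.5% to between 18.2% and 32.2%. The members' median relative to the endothelial markers was 0.65, 0.90 relative to Cdh5 alone and between 0.47 and 0.89 with each library left out. Notch2 had 16.8 CPM per kilobase of exon, 24.3 of coding length and 17.9 of its longest transcript.

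For the 10 members, Notch3, Rbpj, Lfng, Mfng, Egfl7, Nrarp, Adam10, Numb, Cdh5, Emcn and Pecam1, 21 genes in all, 267 of the values fitted under the alternatives kept direction and side of the threshold, and 4 passed it. Scaling to the endothelial markers reversed Notch2 (0.87), Notch4 (0.10), Dll1 (0.57), Jag1 (0.91), Jag2 (0.85), Hey1 (0.47), Heyl (0.41), Notch3 (0.82), Lfng (0.72), Mfng (0.64), Egfl7 (0.23), Nrarp (0.83), Adam10 (0.94), Emcn (0.12) and Pecam1 (0.71), in log2 fold change of males over females, each near or below the shift of all genes. Of the genes lower in males, Dll4 at -0.30 ± 0.587 (SE) and Cdh5 at -0.24 ± 0.483 (SE) kept their sign there, with values smaller than their errors. With each library left out, Dll4 lay between -1.58 and -1.08, and Notch4 between -1.03 and -0.50, the latter without male 2. Hey1 was -0.02 without male 2 and -0.61 without male 3. Dll1 lay between -0.66 and -0.21, Jag2 between -0.40 and -0.04, Notch1 between 0.23 and 0.54, Egfl7 between -1.19 and -0.39, Lfng between -0.26 and -0.01, Mfng between -0.35 and -0.18 and Nrarp between -0.23 and -0.07. Over the left-out libraries the lowest value was -0.16 for Notch2, -0.35 for Jag1, -0.62 for Notch3 and -0.17 for Adam10, and the highest for Hes1 was 0.16. Without male 3 the sign turned for Notch2 (0.028), Hes1 (-0.034) and Adam10 (0.030), without female 3 for Jag1 (0.24) and Adam10 (0.065), without male 2 for Notch3 (0.038), without male 1 for Jag1 (0.054) and without female 1 for Notch3 (0.16).

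With the replicate number as a block, edgeR called 0 members and 1 other pathway gene, Egfl7 (adjusted p = 0.0431), as well as 14 of 24 endothelial markers, all lower in males, and Dll4 had an adjusted p of 0.0906. The block raised the genes called from 8 to 428. Deviations from the group means correlated at 0.19, 0.04 and 0.30 for same-numbered libraries. Males 1 and 3 correlated best with the female of their own number, and male 2 with female 1 (0.13). The labels do not say whether a number marks a pair, and these values do not settle it. The main fit has no block. Without male 3, 96 genes were called. Depth limits Dll4 most among the members, since it rests on as few as 37 counts in a library.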
